A study of Mus musculus with 24 samples.

Results

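Gene expression was compared between Eed knockout (KO) and wild-type (WT) mouse embryoid bodies in how much it changed between day 3 and day 7 of differentiation. The quantity tested for each gene was the KO change (day 7 minus day 3) minus the WT change over the same days, here called the difference of changes. It uses the 16 arrays of days 3 and 7 out of the 24 in the study, the other 8 being of undifferentiated cells on day 0. The platform, the Affymetrix Mouse Gene 1.0 ST array, has probes along the length of each transcript. The 4 groups were Eed KO on day 7, Eed KO on day 3, WT on day 7 and WT on day 3, with 4 arrays in each. The KO arrays came from the embryonic stem cell (ESC) lines E14 and J1 and the WT arrays from J1 and V6.5, with 2 arrays for each line and day. Each of the 4 clones is a single line, and the KO lines were a gift from another laboratory. J1 is the only line name found in both genotypes, so genotype and line cannot be told apart between E14 and V6.5. The labels do not say whether the arrays of a line and day came from separate cultures. The p-values below measure the spread of the 4 arrays of a group, between its 2 lines and between repeat arrays, and the latter may be technical. Each genotype has only 2 clones, so its 4 arrays per day are not 4 independent datapoints. The ESCs had been grown with leukaemia inhibitory factor (LIF) on inactivated mouse embryonic fibroblasts, were depleted of these feeders, and then formed embryoid bodies in hanging drops and in suspension without LIF.

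EED belongs to Polycomb repressive complex 2 (PRC2), an enzyme complex that places methyl groups on lysine 27 of histone H3 at repressed genes. EED binds that mark and is required for the activity of the catalytic subunits EZH1 and EZH2. Embryoid bodies are aggregates in which ESCs leave the pluripotent state and form cells of all germ layers, among them primitive red blood cells, endothelium, heart muscle and visceral endoderm.

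The values are log2 RMA values, so a difference of 1 is a 2-fold difference in signal. A gene was called when its adjusted p in limma was under 0.05 and the difference was at least 1 on the log2 scale. Of the targeted gene, Eed read 6.64, 6.09, 6.26 and 6.23 in KO arrays on day 7 and 5.76, 6.97, 6.21 and 6.42 on day 3. In WT the values were 9.56, 9.41, 9.37 and 9.79 on day 7 and 9.6, 9.91, 10.25 and 10.36 on day 3. KO and WT values did not overlap on either day, and the difference of changes of Eed was 0.45 (SE 0.27, adjusted p = 0.418), which was not called. The labels do not say which part of the gene is deleted. In the values printed below, the 4 KO arrays stand in the order E14 replicates 1 and 2, then J1 replicates 1 and 2, and the WT arrays in the order J1 replicates 1 and 2, then V6.5 replicates 1 and 2.

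1 pair of repeat arrays stood apart. The arrays of WT J1 on day 7 correlated across genes at r = 0.962 and were at least 2-fold apart at 1256 genes, whereas the other 7 pairs correlated at 0.99 to 0.994 and were that far apart at 26 to 163 genes. Replicate 1 of this pair read 11.02 for the summed level (log2) of the neural markers Sox1, Pax6, Nes and Tubb3, against 9.17 in replicate 2, and 9.7 against 13.1 for visceral endoderm markers. Without this array 843 genes were called instead of the 511 described next. Whether the 2 arrays differ in culture or in handling is not given in the labels, and list counts that it moved by more than 1.5 times, or from 0, are given with and without it.

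The difference of changes was called for 511 of 19938 genes (2.56%). It was higher in KO for 272 genes (1.36%) and lower for 239 (1.2%), and at an unadjusted p under 0.05 there were 3535 genes. More genes passed the test in WT than in KO: 753 genes rose (3.78%) and 489 fell (2.45%) between day 3 and day 7 in WT, against 329 that rose (1.65%) and 70 that fell (0.351%) in KO. Of the 489 genes that fell in WT, 55 (11.2%) also fell in KO, and their median change was −0.45 in KO and −1.33 in WT on the log2 scale. Of the 753 that rose in WT, 200 (26.6%) also rose in KO, with median changes of 0.66 in KO and 1.48 in WT. These sets were chosen by their WT change. Chosen by the KO change, 200 of the 329 rising genes (60.8%) also rose in WT, with medians of 1.32 in KO and 1.3 in WT. Of the 70 falling genes, 55 (78.6%) also fell in WT, with medians of −1.22 in KO and −1.68 in WT. Over all genes the median difference of changes was −0.01. KO and WT levels differed at 870 genes (4.36%) on day 7, of which 615 were higher (3.08%) and 255 lower (1.28%) in KO, and at 151 (0.757%) on day 3, of which 133 were higher (0.667%) and 18 lower (0.0903%). For all 511 genes the changes of both KO lines lay on one side of those of both WT lines, as they did for 50.2% of all genes. The calls were made on these same line changes, so the separation is no separate support for them. In bulk RNA of embryoid bodies, fewer cells of a type and less RNA per cell cannot be told apart.

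**Figure D1:**
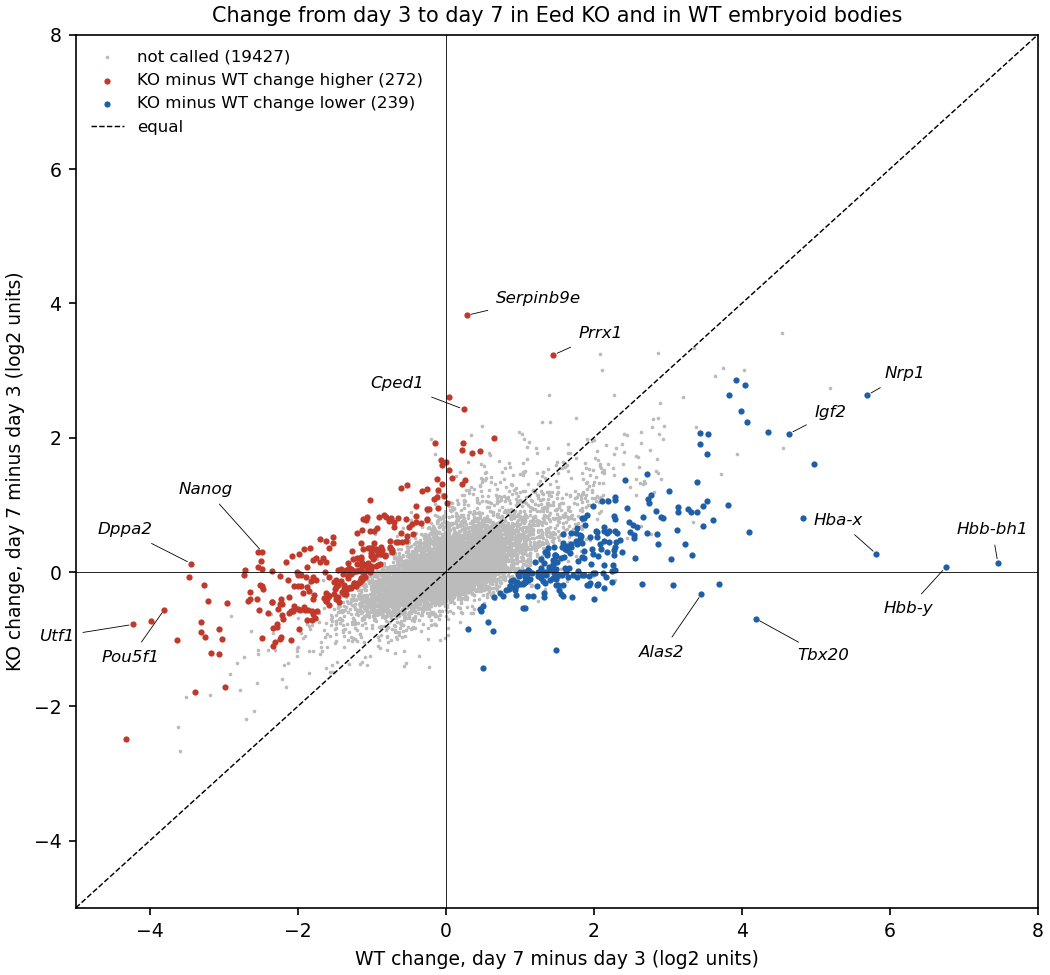
Change from day 3 to day 7 in WT (horizontal axis) and in KO (vertical axis), in log2 units, for 19938 genes; red and blue points are the 272 genes called higher and the 239 called lower in KO, and the dashed line marks equal change. Most red points lie at WT changes below 0 with KO changes near 0, and most blue points at WT changes above 0 with KO changes near 0.

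Sorted by which genotype had a called change, 184 of the 272 higher genes fell in WT with no called change in KO, 27 rose in KO with no called change in WT, 10 fell or rose in both genotypes by different amounts, and 50 had no called change in either. The gene left is Fabp3, a fatty acid binding protein, which rose in KO (1.08) and fell in WT (−1.02). Of the 239 lower genes, 191 rose in WT with no called change in KO, 23 changed in the same direction in both and 23 changed in neither. The other 2 were Ms4a4d, which fell in KO alone, and the olfactory receptor gene Olfr893, which fell in KO (−1.16) and rose in WT (1.49). The median KO change was 0.02 among the higher genes and 0.19 among the lower genes, and the median WT change was −1.33 and 1.82. Between KO and WT on day 7 these sets had median differences of 1.63 and −1.23, and on day 3 of 0.18 and 0.22.

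Factors that maintain the pluripotent state had the highest median of the 31 gene lists. Of 25 measured core pluripotency genes, 17 had a higher change in KO and none a lower one, with a median difference of changes of 1.78, and 20 of the 25 fell in WT while 2 fell in KO. Of 20 naive pluripotency genes 8 were higher and none lower (median 0.91), against 9 higher and 2 lower without WT J1 day 7 replicate 1. Of 13 primed epiblast genes 3 were higher and none lower (median 0.88), the count of higher genes being 6 without WT J1 day 7 replicate 1. The 3 were Zic5, Foxd3 and Dnmt3b, and for Zic5 the probe set used gave 2.28 and a further one 0.4. The summed level (log2) of 8 pluripotency markers, which checks the labelled ESC origin, was 14.7 to 15.2 in KO on day 7, 14.8 to 15.2 in KO on day 3, 10.98 to 12.29 in WT on day 7 and 14.2 to 14.7 in WT on day 3. Pou5f1 read 11.97, 11.49, 11.8 and 11.96 in KO arrays on day 7 and 12.4, 12.37, 12.27 and 12.4 on day 3. WT embryoid bodies gave 8.98, 7.95, 8.85 and 8.94 on day 7 and 12.48, 12.39, 12.56 and 12.5 on day 3. Pou5f1, which encodes the transcription factor OCT4 at the centre of the pluripotency network, lay between 12.27 and 12.56 in all 8 arrays of day 3, and on day 7 all 4 WT arrays were below all 4 KO arrays. The genotypes differed in change by 3.25 (SE 0.21, adjusted p = 4.41e-10). Nanog read 12.82, 12.53, 11.83 and 12.13 in KO arrays on day 7 and 12.35, 12.42, 11.61 and 11.75 on day 3. The WT arrays read 9.67, 8.22, 8.14 and 9.05 on day 7 and 12, 10.96, 10.97 and 11.06 on day 3. Nanog, a homeodomain factor that sustains self-renewal, overlapped between the genotypes on day 3 through WT J1 replicate 1 and did not overlap on day 7. The KO minus WT difference of changes was 2.78 (SE 0.39, adjusted p = 9.97e-05).

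Sox2 read 11.79, 11.09, 11.54 and 11.55 in KO arrays on day 7 and 11.92, 11.81, 11.59 and 11.49 on day 3. In WT the values were 10.84, 7.97, 8.27 and 9.09 on day 7 and 11.5, 11.53, 11.53 and 11.53 on day 3. Sox2, the partner of OCT4 on DNA, overlapped between genotypes on day 3, and on day 7 WT J1 replicate 1 was close to the KO arrays while the other 3 WT arrays were lower. The difference of changes was 2.27 (SE 0.49, adjusted p = 0.00596). Its call was lost without the clone KO E14 (2.48, adjusted p = 0.074), KO J1 (2.05, adjusted p = 0.157) or WT V6.5 (1.9, adjusted p = 0.243). Dppa2 read 12.28, 12.1, 12.43 and 12.41 in KO arrays on day 7 and 12.23, 12.11, 12.08 and 12.28 on day 3. WT embryoid bodies gave 8.16, 8.32, 7.36 and 8.23 on day 7 and 11.62, 10.72, 11.59 and 11.9 on day 3. Dppa2, which with Dppa4 binds DNA in ESCs and early embryos, had the largest positive difference of changes among the named genes, 3.57 (SE 0.26, adjusted p = 5.61e-09), and a further probe set of the gene gave 3.6. Utf1, a chromatin factor of ESCs, had 3.45 (SE 0.27, adjusted p = 1.62e-08), with changes of −0.78 in KO and −4.23 in WT.

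Other large positive differences belonged to Nr0b1 (3.4), which encodes the nuclear receptor DAX1, the arginine transporter gene Slc7a3 (3.26), the enkephalin precursor gene Penk (3.07), the noncoding RNA Lncenc1 (2.83), the Nodal co-receptor gene Tdgf1 (2.78), the zinc finger gene Zfp980 (2.75) and the peroxisomal oxidase gene Pipox (2.67). All of these had called falls in WT of −2.54 to −3.98 and no called change in KO. Zfp980 belongs to a family of near-identical zinc finger genes, so its signal is uncertain. Among naive genes Dppa5a (2.66), Fbxo15 (2.19), Esrrb (1.97) and Tcl1 (1.58) were also higher. Zfp42 read 10.52, 9.8, 10.19 and 9.95 in KO arrays on day 7 and 9.88, 10.34, 9.75 and 9.88 on day 3. The WT arrays read 6.23, 6.15, 5.4 and 6.28 on day 7 and 8.48, 6.04, 8.06 and 8.24 on day 3. Zfp42, which encodes the naive marker REX1, was already lower in WT on day 3, and WT J1 replicate 2 was near its day 7 level by then. Its difference of changes, 1.85 (SE 0.49, adjusted p = 0.0257), was no longer called without KO E14 day 3 replicate 1, KO J1 day 3 replicate 1, WT J1 day 3 replicate 1, WT V6.5 day 3 replicate 1, KO E14 day 7 replicate 1, WT V6.5 day 7 replicate 1 or WT V6.5 day 3 replicate 2 (1.58 to 1.8, adjusted p = 0.052 to 0.0708).

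**Figure D2:**
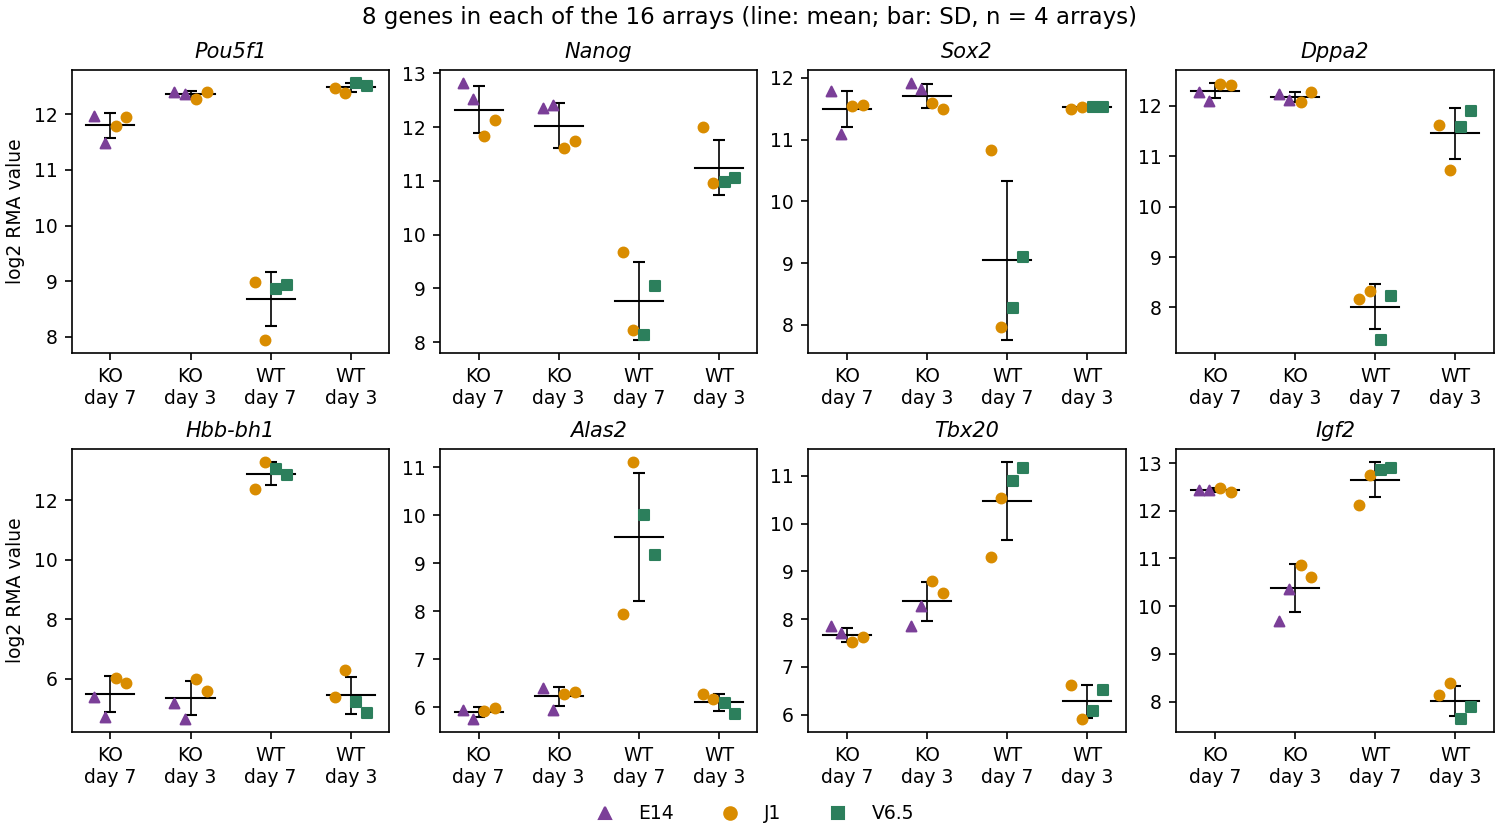
Log2 RMA values of 8 genes in each of the 16 arrays, with the groups KO day 7, KO day 3, WT day 7 and WT day 3 from left to right; points are arrays with the line given by shape and colour, the horizontal line is the mean and the bar the SD of 4 arrays. On day 7 the WT arrays of Pou5f1 lie at 7.95 to 8.98 and the KO arrays at 11.49 to 11.97, while Igf2 reaches 12.11 to 12.90 in WT and 12.38 to 12.47 in KO from different day 3 levels.

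Several of these genes lie next to each other on the chromosome. In the RefSeq gene order, called genes without an intervening measured gene form runs that hold 39 of 271 placed higher genes (14.4%, 18 runs) and 21 of 239 lower genes (8.79%, 10 runs). The share for genes placed at random was not computed, so these shares are a description. Some runs are neighbours of 1 gene family, such as Serpinb9d and Serpinb9e. Picked after their values were seen, the runs of 3 include Dppa4 (1.79), Dppa2 and Morc1 (1.78), then Gdf3 (2.23), Dppa3 (1.33) and Nanog, then Triml1 (1.19), Triml2 (2.09) and Zfp42, and on the lower side the beta-like globin genes Hbb-bh2 (−1.22), Hbb-bh1 and Hbb-y.

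Promoter sequences are shown for 3 pluripotency genes of the higher set whose promoter holds the octamer core TTTGCAT, to which OCT4 is known to bind, on either strand. The letters are in capitals at the match. This motif occurs in 642 of the 15614 promoters matched to measured genes (4.11%), and the windows run from 250 bases before to 50 after the gene start. Among promoters of called genes it occurs in 18 of 216 higher ones (8.33%) and 3 of 175 lower ones (1.71%). They are RefSeq sequences of build GRCm38.p6, written 5′ to 3′ on the gene's strand.
Nanog, chr6:122707239-122707538, plus strand: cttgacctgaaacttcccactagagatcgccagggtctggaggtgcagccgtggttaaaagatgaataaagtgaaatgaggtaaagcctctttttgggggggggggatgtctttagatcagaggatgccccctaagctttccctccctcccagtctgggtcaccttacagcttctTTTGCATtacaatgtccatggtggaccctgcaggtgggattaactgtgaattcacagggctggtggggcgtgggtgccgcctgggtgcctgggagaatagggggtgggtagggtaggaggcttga
Sox2, chr3:34649745-34650044, plus strand: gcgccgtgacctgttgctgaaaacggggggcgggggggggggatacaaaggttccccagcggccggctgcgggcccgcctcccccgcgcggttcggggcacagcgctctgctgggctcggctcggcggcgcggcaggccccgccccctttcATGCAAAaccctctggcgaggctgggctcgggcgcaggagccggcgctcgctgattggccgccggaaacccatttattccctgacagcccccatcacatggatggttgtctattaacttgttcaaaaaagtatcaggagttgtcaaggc
Zfp42, chr8:43306960-43307259, minus strand: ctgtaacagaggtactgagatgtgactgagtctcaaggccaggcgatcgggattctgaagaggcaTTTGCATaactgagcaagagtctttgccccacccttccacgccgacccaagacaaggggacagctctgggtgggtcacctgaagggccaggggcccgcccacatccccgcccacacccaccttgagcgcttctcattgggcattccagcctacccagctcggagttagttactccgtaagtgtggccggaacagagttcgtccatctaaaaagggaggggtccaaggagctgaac
The promoter of Pou5f1 holds no match in this window, and that of Cdx2, a gene of the lower set, holds 1. A match or its absence is a description of the letters alone.

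MicroRNA genes of the Mir302 cluster, whose products are abundant in ESCs, had the second highest list median, 1.43, but none of the 5 measured was called. All 5 fell in WT, and none had a called change in KO. Mir302c stood at 4.95, 4.97, 4.36 and 5.19 in KO on day 7 and 5.97, 6.98, 5.81 and 5.79 on day 3, and 5.91, 4.25, 4.45 and 5.14 in WT on day 7 and 7.93, 8.23, 6.78 and 7.74 on day 3. On day 7 the genotypes overlapped, and on day 3 the highest KO array was above 1 of the WT arrays. The difference of changes of 1.46 (SE 0.77, adjusted p = 0.337) went with a lower KO mean on day 3. The mature 3p sequences below, from RefSeq, have the seed, bases 2 to 8, in capitals.
mmu-miR-302b-3p: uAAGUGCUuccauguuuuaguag
mmu-miR-302c-3p: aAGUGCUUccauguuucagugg
mmu-miR-302d-3p: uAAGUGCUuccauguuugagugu
mmu-miR-367-3p: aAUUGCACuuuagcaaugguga
The seeds of miR-302b-3p and miR-302d-3p are identical in these sequences, and miR-302c-3p has AGUGCUU at bases 2 to 8.

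Nodal signalling supports the pluripotent state of the epiblast and induces its own antagonists, and BMP signalling directs cells to mesoderm. Of 22 genes of the Nodal, BMP and Id list, 5 were higher and 6 lower (median −0.06). The higher ones were all of the Nodal branch, namely the ligand genes Nodal (1.85) and Gdf3 (2.23), the co-receptor gene Tdgf1 and the antagonist genes Lefty1 (2.62) and Lefty2 (2.35). All 5 are also members of the core pluripotency list and were counted there. Lefty1 stood at 8.25, 8.53, 10.42 and 10.74 in KO and 6.32, 5.9, 6.02 and 6.56 in WT on day 7, with the E14 arrays below the J1 arrays in KO and no overlap between genotypes. The lower ones were of the BMP branch, namely the ligand genes Bmp2 (−2.41), Bmp5 (−2.27) and Bmp4 (−1.93), the inhibitor gene Smad6 (−1.44) and the BMP target genes Msx2 (−1.85) and Msx1 (−1.3). Bmp4 stood at 10.88, 10.52, 10.14 and 10.24 in KO and 10.8, 10.08, 11.07 and 11.26 in WT on day 7, with overlap, and 9.73, 10.15, 9.0 and 9.27 in KO and 8.42, 7.73, 7.66 and 8.04 in WT on day 3, without overlap. The lower Bmp4 change in KO went with a higher level in KO on day 3, and its difference of changes was −1.93 (SE 0.34, adjusted p = 0.00116).

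Fibroblast growth factor (FGF) genes divided in a similar way. Of 18 genes of the FGF and ERK feedback list, 5 were higher, namely the ESC ligand gene Fgf4 (1.95) and the ERK response genes Spry4 (1.9), Etv5 (1.74), Etv4 (1.23) and Dusp6 (1.01). The 3 lower ones were the mesenchymal ligand gene Fgf10 (−1.67) and the receptor genes Fgfr3 (−1.55) and Fgfr2 (−1.03). Fgf4 stood at 10.29, 9.63, 9.72 and 9.89 in KO and 7.54, 7.1, 7.42 and 7.39 in WT on day 7, without overlap, against 9.97, 9.82, 9.81 and 10.11 in KO and 9.19, 8.69, 9.82 and 9.72 in WT on day 3. Of 21 Wnt genes none was higher (2 without WT J1 day 7 replicate 1) and 3 were lower, the ligand genes Wnt2 (−1.85) and Wnt5a (−1.63) and the receptor gene Lgr5 (−1.12). The call of Lgr5 was lost without KO J1 day 3 replicate 1, WT V6.5 day 3 replicate 1, KO E14 day 7 replicate 1, WT V6.5 day 7 replicate 1, KO J1 day 3 replicate 2, WT J1 day 3 replicate 2, WT V6.5 day 3 replicate 2, KO E14 day 7 replicate 2, KO J1 day 7 replicate 2 or WT V6.5 day 7 replicate 2 (−0.87 to −1.19, adjusted p = 0.0518 to 0.108).

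The 3 largest negative differences of changes were those of embryonic globin genes. Of 15 measured embryonic globin and heme genes 8 were lower and none higher (median −1.02), and 7 rose in WT and none in KO. Hbb-bh1 read 5.38, 4.7, 6.03 and 5.87 in KO arrays on day 7 and 5.2, 4.65, 6.0 and 5.58 on day 3. In WT the values were 12.37, 13.29, 13.07 and 12.85 on day 7 and 5.37, 6.3, 5.22 and 4.85 on day 3. Hbb-bh1, a beta-like globin of primitive red cells, overlapped among the other 3 groups, and all 4 WT arrays of day 7 were above the rest. Its difference of changes was −7.32 (SE 0.39, adjusted p = 1.3e-11). The embryonic globin genes Hbb-y and Hba-x had −6.68 (SE 0.34, adjusted p = 9.39e-12) and −5.55 (SE 0.30, adjusted p = 1.51e-11). Embryonic beta-like globins resemble each other in sequence, so signal may be shared among their probe sets.

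Alas2 read 5.95, 5.76, 5.93 and 5.98 in KO arrays on day 7 and 6.4, 5.94, 6.28 and 6.31 on day 3. WT embryoid bodies gave 7.96, 11.11, 10.01 and 9.17 on day 7 and 6.29, 6.17, 6.1 and 5.87 on day 3. Alas2, the first enzyme of heme synthesis in red cells, separated the genotypes on day 7 without overlap, with WT J1 replicate 1 the lowest WT array. The genotypes differed in change by −3.78 (SE 0.50, adjusted p = 5.48e-05). The mitochondrial iron importer gene Slc25a37 (−1.77), the red cell membrane protein gene Epb42 (−2.24) and the heme enzyme genes Ppox (−1.08) and Cpox (−1.02) were lower too. AGATAA, a letter run bound by GATA factors, occurs on either strand in 1491 of the 15614 promoters (9.55%). Among called genes it occurs in 6 higher ones (2.78%) and 24 lower ones (13.7%), and those of Hbb-y, Hba-x and Gata1 hold none. Only this exact run was searched, so related runs, such as TGATAA in the window of Hba-x, were not counted. The promoter of Alas2 holds AGATAA and is shown with the match in capitals because GATA1 is a known regulator of this gene.
Alas2, chrX:150547167-150547466, plus strand: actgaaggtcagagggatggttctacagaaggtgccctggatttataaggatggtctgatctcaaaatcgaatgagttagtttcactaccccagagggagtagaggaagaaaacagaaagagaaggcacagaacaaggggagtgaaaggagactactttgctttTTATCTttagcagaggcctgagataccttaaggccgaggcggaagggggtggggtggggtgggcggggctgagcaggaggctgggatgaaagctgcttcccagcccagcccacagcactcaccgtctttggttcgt

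Of 18 hematopoietic transcription factor genes 9 were lower and none higher (median −1.12), and 10 rose in WT and 1 in KO. The lower ones included the red cell factor gene Gata1 (−2.04), its cofactor gene Zfpm1 (−2.05), Nfe2 (−1.54), Klf1 (−1.31), Gfi1b (−1.43), Runx1 (−1.5), Ikzf1 (−1.54), Lmo2 (−1.31) and Lyl1 (−1.2). Gata1 read 6.81, 6.6, 6.66 and 6.74 in KO arrays on day 7 and 6.65, 6.48, 6.99 and 6.77 on day 3. The WT arrays read 7.78, 9.16, 9.37 and 8.87 on day 7 and 6.76, 7.1, 6.93 and 6.33 on day 3. The KO arrays on day 7 lay within the day 3 range of both genotypes, and the 4 WT arrays of day 7 lay above it. Plek, a protein of platelets and leukocytes, had −3.27 (SE 0.74, adjusted p = 0.00948), and Rasgrp3, an exchange factor for Ras found in endothelium and B cells, had −3.06 (SE 0.63, adjusted p = 0.00402), of which the line pairs gave −1.07 in the J1 pair and −5.06 in the E14 and V6.5 pair. The summed level (log2) of 7 primitive blood markers was 8.99 to 9.46 in KO on day 7, 8.91 to 9.58 in KO on day 3, 13.70 to 14.97 in WT on day 7 and 9.35 to 9.69 in WT on day 3.

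Endothelial genes gave counts that depended on 1 array. Of 22 genes 3 were lower and none higher (median −0.77), and 12 were lower without WT J1 day 7 replicate 1. The called ones were the receptor genes Kdr (−2.83), Aplnr (−2.79) and Flt1 (−1.12). Kdr, which encodes the main receptor for vascular endothelial growth factor, stood at 6.45, 7.3, 8.57 and 8.31 in KO and 8.87, 9.99, 10.38 and 10.32 in WT on day 7, with no overlap, and 6.56, 6.31, 7.35 and 7.3 in KO and 6.67, 6.8, 5.84 and 5.82 in WT on day 3. The KO minus WT difference of changes was −2.83 (SE 0.54, adjusted p = 0.00221), with −1.57 in the J1 pair and −4.08 in the E14 and V6.5 pair. The call of Flt1 was lost without KO J1 day 3 replicate 1, KO J1 day 7 replicate 1 or WT V6.5 day 7 replicate 2 (−1.0 to −1.03, adjusted p = 0.0447 to 0.0516). Nrp1, a co-receptor for the same growth factor, rose in both genotypes, with changes of 2.64 in KO and 5.7 in WT. The summed endothelial marker level on day 7 was 9.46 and 10.06 in the E14 KO arrays and 11.94 and 11.14 in the J1 KO arrays. In WT it was 10.07 to 12.53, so the J1 KO arrays lay within the WT range and the E14 KO arrays below it. WT J1 replicate 1 was the lowest WT array, and its part in the list's count is given by the 12 genes called without it.

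In the list of heart and lateral mesoderm transcription factors 10 of 18 measured genes were lower and 1 higher (median −1.17). In WT 12 rose and in KO 3. The list also holds genes of other kinds, such as the ligand gene Bmp4 and Smarcd3, and both are among the lower ones. Tbx20 read 7.86, 7.71, 7.51 and 7.62 in KO arrays on day 7 and 7.85, 8.28, 8.79 and 8.56 on day 3. In WT the values were 9.31, 10.54, 10.89 and 11.16 on day 7 and 6.62, 5.91, 6.07 and 6.52 on day 3. Tbx20, a T-box factor of the heart, was higher in KO than in WT on day 3 and lower on day 7, without overlap on either day. Its difference of changes was −4.88 (SE 0.46, adjusted p = 3.23e-07). Hand1 read 8.8, 8.66, 8.61 and 8.62 in KO arrays on day 7 and 7.62, 7.55, 7.72 and 7.8 on day 3. WT embryoid bodies gave 11.02, 11.03, 11.4 and 11.49 on day 7 and 7.42, 7.52, 7.49 and 7.23 on day 3. Hand1, a factor of extraembryonic mesoderm and heart, had a called rise in WT with a change of 3.82, and its KO change of 0.998 was below the 2-fold minimum. The difference of changes was −2.82 (SE 0.17, adjusted p = 6.85e-11). The others lower were the lateral mesoderm factor gene Foxf1 (−3.5), the GATA factor genes Gata6 (−1.77), Gata4 (−1.32) and Gata5 (−1.11), and Hand2 (−1.53), Mef2c (−1.76), Smarcd3 (−1.23) and Bmp4. The 1 gene that was higher was Tbx18, a factor of the epicardium (1.06). For Foxf1 the WT change was larger in V6.5 than in J1, as both V6.5 arrays of day 7 read 12.13 and 12.28 and the J1 arrays 10.15 and 10.50.

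Of 20 sarcomere genes 5 were lower and none higher (median −0.47). They were the smooth muscle actin gene Acta2, the cardiac actin gene Actc1 (−1.58) and the troponin genes Tnni1 (−2.23), Tnnc1 (−1.78) and Tnnt2 (−1.45). Acta2 stood at 7.79, 7.53, 9.3 and 9.54 in KO and 10.17, 12.08, 12.63 and 12.25 in WT on day 7, without overlap, against 7.42, 7.6, 7.99 and 7.93 in KO and 7.1, 7.17, 6.63 and 6.9 in WT on day 3. The genotypes differed in change by −4.02 (SE 0.61, adjusted p = 0.000219), with −2.53 in the J1 pair and −5.52 in the E14 and V6.5 pair. The heart muscle genes Myh6 (−0.09), Myl2 (−0.12) and Myl7 (−0.21) were not called. The summed level of 5 heart muscle markers was 9.94 to 10.15 in KO and 10.14 to 11.74 in WT on day 7.

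Of 19 genes of the primitive streak and early mesoderm, which act before day 7 in such cultures, none was higher (1 without WT J1 day 7 replicate 1) and 1 lower (median −0.12). The lower one was the growth factor receptor gene Pdgfra, which rose in both genotypes with changes of 2.24 in KO and 4.07 in WT and a difference of −1.83 (SE 0.33, adjusted p = 0.00151).

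Endoderm was mixed. Of 15 endoderm transcription factor genes 4 were lower and none higher (median −0.42), namely Gata6, Gata4, Cdx2 (−1.94) and Foxa1 (−1.07), and without WT J1 day 7 replicate 1 5 were lower and 1 higher. Gata6 and Gata4 act in both mesoderm and endoderm, and Cdx2 in posterior tissue and trophoblast. The call of Gata6 was lost without the clone KO E14 (−2.01, adjusted p = 0.107), KO J1 (−1.53, adjusted p = 0.232) or WT V6.5 (−0.88, adjusted p = 0.559). The call of Foxa1 was lost without KO J1 day 7 replicate 1, WT V6.5 day 7 replicate 1 or WT V6.5 day 3 replicate 2 (−0.91 to −0.97, adjusted p = 0.0326 to 0.0416). Of 24 visceral endoderm and plasma protein genes 4 were lower and none higher (median −0.66), and 11 were lower without WT J1 day 7 replicate 1. The 4 were the tryptophan dioxygenase gene Tdo2 (−3.86), the trypsin inhibitor gene Spink1 (−3.36), Igf2 (−2.58) and the angiomotin gene Amot (−2.11). The call of Spink1, with an adjusted p of 0.0388, was lost without KO J1 day 3 replicate 1, WT J1 day 3 replicate 1, WT V6.5 day 3 replicate 1, KO J1 day 7 replicate 1, WT V6.5 day 7 replicate 1, KO J1 day 3 replicate 2, WT J1 day 3 replicate 2, WT V6.5 day 3 replicate 2, KO J1 day 7 replicate 2, WT J1 day 7 replicate 2 or WT V6.5 day 7 replicate 2 (−2.74 to −3.44, adjusted p = 0.0533 to 0.0963). The fetal serum protein genes Afp (0.94) and Apoa1 (−0.6) were not called.

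Of 24 neuroectoderm and neuronal genes none was called (median −0.09), and without WT J1 day 7 replicate 1, the array with the highest neural marker level, 3 were higher and 1 lower. The largest difference in that list was that of Stmn2, a microtubule regulator of neurons, at 1.1 (SE 0.35, adjusted p = 0.0737). Of 19 trophoblast genes 1 was higher, the keratin gene Krt7 (1.61), and 3 were lower, Hand1, Cdx2 and the placental gene Peg10 (−1.28). Krt7 rose in KO alone, and its call was lost without WT V6.5 day 7 replicate 2 (1.44, adjusted p = 0.0507). It was also lost without the clone KO E14 (0.83, adjusted p = 0.397) or WT V6.5 (1.34, adjusted p = 0.381). The list had 0 to 4 higher genes with 1 array left out, the highest count being without WT J1 day 7 replicate 1.

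**Figure D3:**
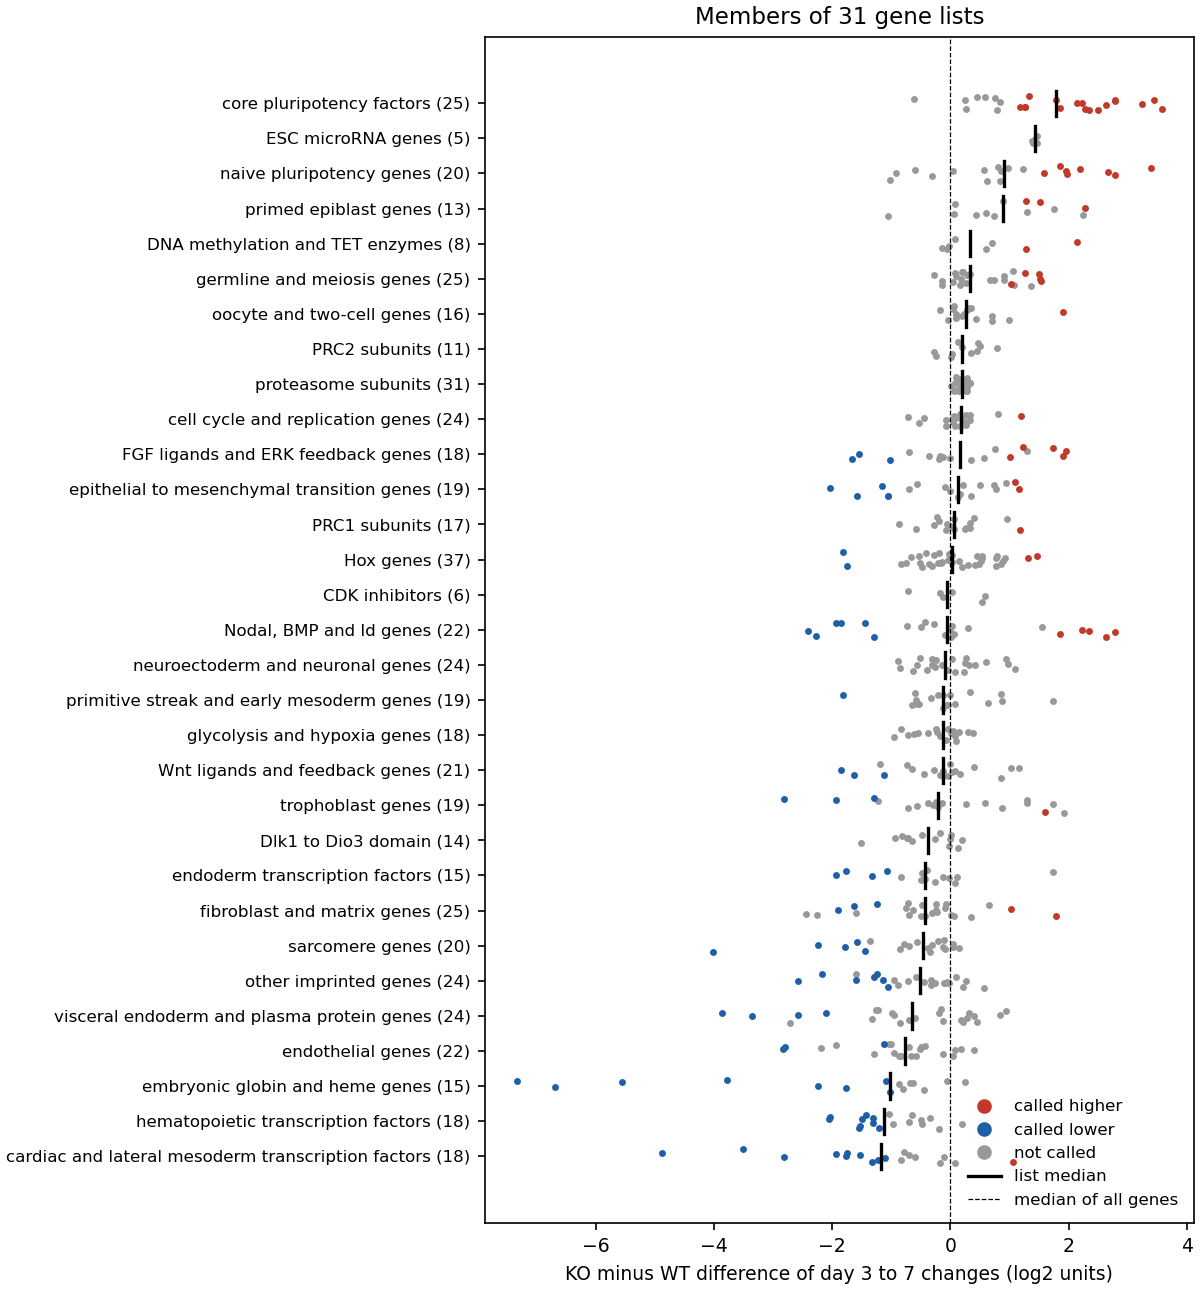
Difference of changes (KO minus WT, log2 units) of the members of 31 gene lists, ordered by list median from top to bottom, with the number of measured genes in brackets; red and blue points are called higher and lower in KO, grey points are not called, black bars are list medians and the dashed line is the median of all genes. The core pluripotency list has the highest median at 1.78 and the heart and lateral mesoderm list the lowest at −1.17.

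Polycomb genes were among the quiet ones. Of 11 PRC2 subunit genes none was called (median 0.20). The largest was Jarid2, a PRC2 cofactor, which stood at 12.13, 12, 12.13 and 12.25 in KO and 11.48, 10.63, 10.82 and 10.96 in WT on day 7, without overlap, and 12.15, 12.24, 11.94 and 12.08 in KO and 11.81, 11.46, 11.84 and 11.85 in WT on day 3. The KO minus WT difference of changes was 0.79 (SE 0.18, adjusted p = 0.0105), below the 2-fold minimum. Of 17 PRC1 subunit genes 1 was higher, Phc1, at 1.18 (SE 0.20, adjusted p = 0.000719), and none was lower (1 without WT J1 day 7 replicate 1). Of 8 genes of DNA methylation 2 were higher, the cofactor gene Dnmt3l (2.15) and the de novo methyltransferase gene Dnmt3b (1.27). Phc1 and Dnmt3l were also counted in the core pluripotency list, and Dnmt3b in the primed epiblast list. Dnmt3b fell in both genotypes, with changes of −1.72 in KO and −2.99 in WT, and its call was lost without KO J1 day 7 replicate 2 or WT J1 day 7 replicate 2 (0.96 to 1.13, adjusted p = 0.0252 to 0.0562). Cdkn2a, a cell cycle inhibitor locus repressed by Polycomb in many cells, stood at 9.18, 8.31, 9.47 and 8.56 in KO and 7.05, 7.39, 7.14 and 6.8 in WT on day 7, without overlap, and 8.59, 8.35, 8.72 and 8.53 in KO and 7.21, 7.23, 7.34 and 7.37 in WT on day 3, again without overlap. Its difference of changes was 0.53 (SE 0.25, adjusted p = 0.279).

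Germline genes added to the higher side. Of 25 germline and meiosis genes 5 were higher and none lower (median 0.33), namely Dazl (1.53), Stra8 (1.51), Ddx4 (1.5), Sycp3 (1.27) and Taf7l (1.03). Stra8, which is needed for entry into meiosis, stood at 5.76, 6.14, 6.51 and 6.27 in KO and 4.63, 4.47, 4.71 and 4.59 in WT on day 7, without overlap, and 5.13, 4.57, 4.59 and 4.87 in KO and 4.87, 4.68, 4.73 and 4.61 in WT on day 3. It rose in KO by 1.38 and had a difference of changes of 1.51 (SE 0.22, adjusted p = 0.000173). Ddx4, the germ cell RNA helicase gene Vasa, fell in WT by a change of −2.34, against −0.84 in KO. The call of Sycp3, a protein of the meiotic chromosome axis, was lost without KO E14 day 3 replicate 1, KO J1 day 3 replicate 1, WT J1 day 3 replicate 1, KO J1 day 3 replicate 2, WT J1 day 3 replicate 2, KO J1 day 7 replicate 2, WT J1 day 7 replicate 2 or WT V6.5 day 7 replicate 2 (1.0 to 1.3, adjusted p = 0.0521 to 0.0923). The list had 3 higher genes without KO E14 day 3 replicate 1, KO J1 day 3 replicate 1 or 2, WT J1 day 3 replicate 1 or WT V6.5 day 7 replicate 2. Of 16 oocyte and 2-cell genes Ooep was higher (1.9 (SE 0.29, adjusted p = 0.00022)), and 2 were higher without WT J1 day 7 replicate 1.

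Imprinted genes, which are expressed from 1 parental copy, leaned to the lower side. Of 24 imprinted genes outside the Dlk1 to Dio3 domain 7 were lower and none higher (median −0.52), and 12 rose in WT and 6 in KO. Igf2 read 12.44, 12.44, 12.47 and 12.38 in KO arrays on day 7 and 9.68, 10.36, 10.86 and 10.61 on day 3. The WT arrays read 12.11, 12.75, 12.85 and 12.9 on day 7 and 8.13, 8.39, 7.64 and 7.89 on day 3. Igf2, the fetal insulin-like growth factor, was higher in KO than in WT on day 3, and on day 7 the genotypes overlapped. It rose in both, and its difference of changes was −2.58 (SE 0.32, adjusted p = 1.87e-05). The others were Plagl1 (−2.17), Phlda2 (−1.59), Peg10, Peg3 (−1.25), Mest (−1.15) and Airn (−1.05). Airn is an antisense transcript over Igf2r (−0.89, not called). Of 14 measured genes of the Dlk1 to Dio3 domain none was called (median −0.37), and 2 were lower without WT J1 day 7 replicate 1.

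Of 37 Hox genes 2 were higher and 2 lower (median 0.02). The higher ones were the posterior genes Hoxa11 (1.47) and Hoxa10 (1.32), which rose in KO and had no called change in WT. Hoxa11 stood at 7.66, 8.31, 8.12 and 8.25 in KO and 6.13, 6.57, 5.78 and 5.74 in WT on day 7, without overlap. The lower ones were Hoxc8 (−1.82) and Hoxb2 (−1.76), which rose in WT. Hoxc8 stood at 8.02, 8.23, 7.81 and 7.56 in KO and 7.21, 7.94, 9.07 and 9.5 in WT on day 7, with overlap, and 7.54, 8.0, 7.6 and 7.54 in KO and 6.25, 6.49, 6.38 and 6.41 in WT on day 3, where every KO array was above every WT array. The WT change of Hoxc8 was larger in V6.5 than in J1.

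Among the genes that rose in KO with no called change in WT, the 3 largest were Serpinb9e (3.54), Serpinb9d (2.55) and Cped1 (2.18). Serpinb9e read 9.37, 11.61, 7.76 and 5.12 in KO arrays on day 7 and 4.4, 4.82, 4.78 and 4.57 on day 3. In WT the values were 4.53, 4.98, 4.81 and 4.75 on day 7 and 4.78, 4.34, 4.6 and 4.2 on day 3. Serpinb9e, a serine protease inhibitor gene, was thus high in both E14 KO arrays and in J1 KO replicate 1 on day 7 and 5.12 in J1 KO replicate 2. Its adjusted p was 0.0259, and the call was lost without KO E14 day 3 replicate 1, WT V6.5 day 3 replicate 1 or KO E14 day 7 replicate 1 (3.32 to 3.49, adjusted p = 0.0522 to 0.0596). It was also lost without the clone KO E14 (1.48, adjusted p = 0.303), WT J1 (3.45, adjusted p = 0.127) or WT V6.5 (3.63, adjusted p = 0.326). The call of Serpinb9d was lost without KO E14 day 3 replicate 1, WT J1 day 3 replicate 1, WT V6.5 day 3 replicate 1, KO E14 day 7 replicate 1, WT V6.5 day 7 replicate 1, KO E14 day 3 replicate 2, WT V6.5 day 3 replicate 2 or WT V6.5 day 7 replicate 2 (2.4 to 2.56, adjusted p = 0.0605 to 0.0753). Both belong to a tandem family of similar serpin genes, so their probe sets may share signal. Cped1 read 8.23, 9.21, 10.05 and 9.34 in KO arrays on day 7 and 6.43, 7.3, 6.67 and 6.74 on day 3. WT embryoid bodies gave 6.38, 6.88, 6.38 and 6.03 on day 7 and 5.96, 6.02, 6.2 and 6.52 on day 3. All 4 KO arrays of Cped1, whose role is little known, were above all other arrays on day 7, and the difference of changes was 2.18 (SE 0.36, adjusted p = 0.000533). Prrx1, a homeobox factor of mesenchyme, rose in both genotypes and more in KO, with changes of 3.23 in KO and 1.45 in WT, and its call was lost without WT V6.5 day 7 replicate 1 (1.55, adjusted p = 0.0534).

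Genes of the epithelial to mesenchymal transition divided by side. Of 19 genes 2 were higher, the epithelial adhesion genes Epcam (1.16) and Cdh1 (1.09), and 4 were lower, the mesenchymal factor genes Zeb2 (−2.03) and Snai2 (−1.59) and the genes Fn1 (−1.15) (fibronectin) and Vim (−1.06) (vimentin). The call of Epcam was lost without WT J1 day 7 replicate 1 (0.91, adjusted p = 0.000954), that of Fn1 without WT J1 day 3 replicate 2 (−0.82, adjusted p = 0.0153), and that of Snai2 without WT V6.5 day 7 replicate 1, WT V6.5 day 3 replicate 2 or WT V6.5 day 7 replicate 2 (−1.38 to −1.49, adjusted p = 0.0505 to 0.0539). Of 25 fibroblast and matrix genes 2 were higher, Prrx1 and Thy1 (1.02), and 3 lower, the collagen genes Col1a1 (−1.63) and Col1a2 (−1.24) and the thrombospondin gene Thbs1 (−1.91), and 7 were lower without WT J1 day 7 replicate 1. The count of higher matrix genes was 0 to 2 with 1 array left out, and 0 without WT V6.5 day 7 replicate 1. The summed level of 9 measured feeder fibroblast markers was 10.9 to 11.8 in KO and 11.1 to 13.6 in WT on day 7, and 10.4 to 10.5 in KO and 10.2 to 10.5 in WT on day 3. The markers include Col1a1 and Col1a2, so this level is not separate from the lower matrix genes, and its part in them was not tested. Whether the signal comes from feeder cells or from cells of the embryoid bodies was not tested either.

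Of 24 cell cycle and replication genes 1 was higher, the cyclin gene Ccne1 (1.19 (SE 0.21, adjusted p = 0.00117)), and none lower, and 2 were higher without WT J1 day 7 replicate 1. None of 18 glycolysis and hypoxia genes, 31 proteasome genes or 6 CDK inhibitor genes was called, with medians of −0.12, 0.19 and −0.05, and 1 glycolysis and hypoxia gene was lower without that array.

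The 2 line pairs were then set side by side. They share no array. The J1 pair holds the WT J1 arrays of day 7, which were at least 2-fold apart at 1256 genes (r = 0.962). The part of this spread in the J1 counts and values was not tested. In the J1 pair alone, where both genotypes carry the same line name, 204 genes were called (1.02%), 150 higher (0.752%) and 54 lower (0.271%), and in E14 KO against V6.5 WT 800 genes were called (4.01%), 442 higher (2.22%) and 358 lower (1.8%). Of the 150 higher in J1, 90 were also called higher in the other pair (60%, and 20.4% of that pair's 442), and of the 54 lower, 41 (75.9%, and 11.5% of 358). No gene was called in opposite directions. The sign was the same for 193 of the 204 genes, against 12821 of all 19938. Across all genes the differences of changes of the 2 pairs correlated at Pearson's r = 0.581 and Spearman's rho = 0.444, a description across genes, which are not independent. The median difference among the J1 higher genes was 1.48 in J1 and 1.35 in the other pair, and among the J1 lower genes −1.79 and −2.03.

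**Figure D4:**
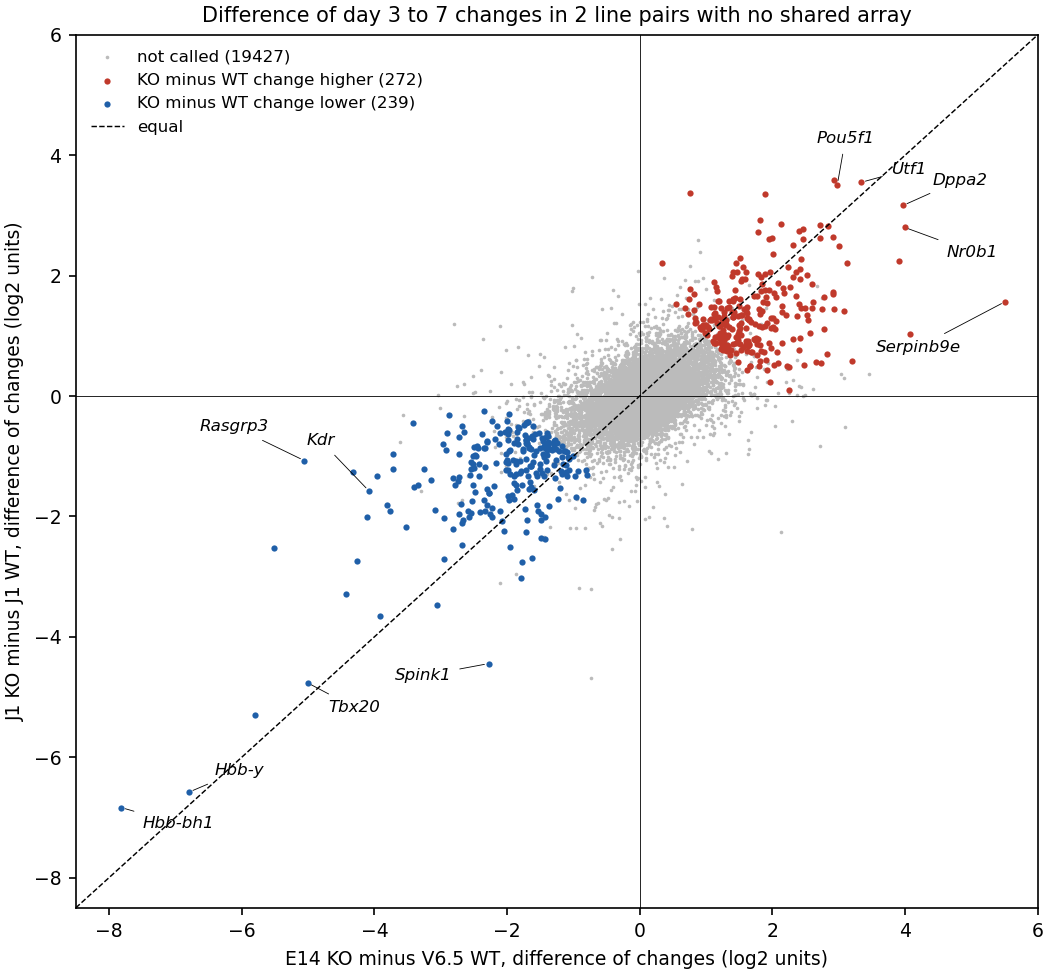
Difference of changes in E14 KO against V6.5 WT (horizontal axis) and in J1 KO against J1 WT (vertical axis), in log2 units, for 19938 genes; red and blue points are the 272 genes called higher and the 239 called lower in the fit of all lines, which used both pairs. Hbb-bh1 lies at −7.81 and −6.83 and Pou5f1 at 2.98 and 3.51, near the dashed line of equality, while Rasgrp3 lies at −5.06 and −1.07.

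Of the genes called in J1 alone, 149 were also called in the fit of both lines and 55 were not. The largest of these 55 on the higher side were Ina, an intermediate filament of neurons, Gstm3, Aim2, Piezo2 and Usp26, and on the lower side Ttr, Krt8, Sgce, Rhbdf1 and F5. Ttr, which encodes the thyroid hormone carrier transthyretin made by visceral endoderm, had a difference of changes of −4.69 in the J1 pair and −0.73 in the E14 and V6.5 pair. Within KO the change of Krt8 was larger in E14 than in J1, and within WT 49 genes (0.246%) had a called difference between V6.5 and J1, against 23 (0.115%) within KO between E14 and J1.

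The counts moved with the arrays used. Leaving out 1 array at a time gave 397 to 843 called genes, the highest without WT J1 day 7 replicate 1 (369 higher and 474 lower). Without the V6.5 WT line 145 genes were called, of which 127 had been called with it, and without the J1 WT line 899, of which 471. All 511 genes kept the sign of their difference under the alternatives run, except that the filter on a mean level above 6 tested 478 of them. Thresholds, blocks and averaging do not change the difference itself, so its sign was fixed there. The changes of both KO lines lay on one side of those of both WT lines, so leaving out a clone could not reverse it either. Of the 109 genes chosen by the naming rule 90 were called, and 32 of them were called under all alternatives that tested them, whereas 50 lost the call without V6.5. The call was lost for 58 of the 90 without at least 1 clone and for 14 without at least 1 single array. Losses without a clone are given above for some genes only.

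**Figure D5:**
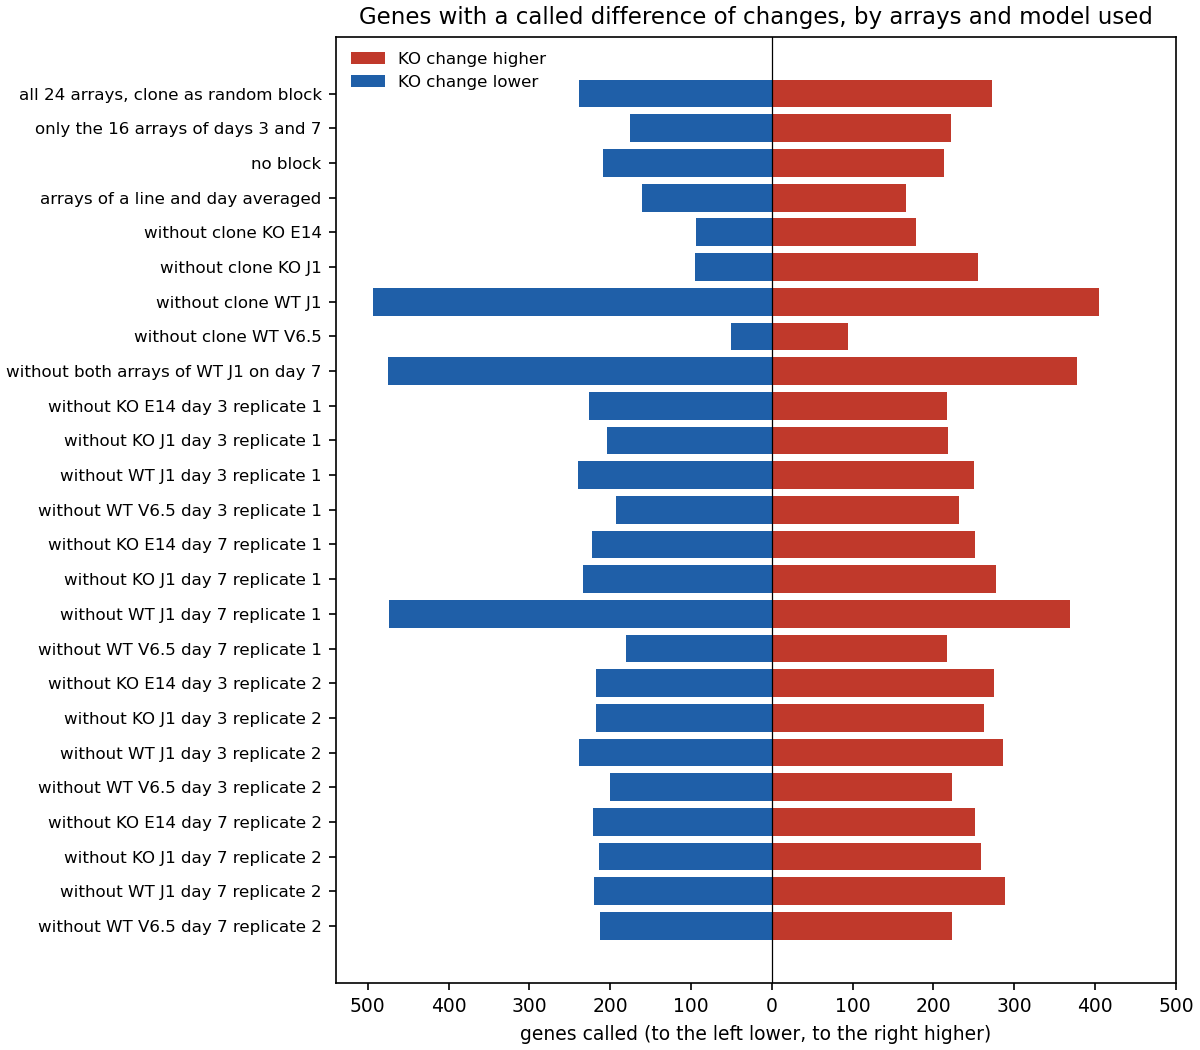
Number of genes with a called difference of changes, higher in KO to the right and lower in KO to the left of 0, for the fit of all 24 arrays and for fits with other arrays or models. The bars run to 369 and 474 genes without WT J1 day 7 replicate 1 and to 94 and 51 without the V6.5 WT line.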

How the data were processed

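RNA was measured on 24 Affymetrix Mouse Gene 1.0 ST arrays. The deposited values are on a log2 scale, made by the authors with RMA in Affymetrix Power Tools per the submitters' processing notes, and were taken as deposited. RMA corrects background, makes the arrays' distributions alike and summarises probes per probe set, so a shift of total RNA cannot be seen. Depth does not apply to arrays, and the number of arrays limits the precision. Probe sets were named with the platform annotation and symbols updated through RefSeq (GRCm38.p6). Of 35556 probe sets 21789 had 1 gene symbol, 1621 had several and 12146 were not listed, and 21698 were matched to RefSeq. The probe set of highest mean stood for each of 19938 genes, 999 of which had more than 1. Among the named genes the probe sets disagreed for Zic5, at 2.28 in the one used and 0.4 in the other.

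The test was limma 3.58.1 (R 4.3.3, statmod 1.5.0) with a mean for each of the 6 genotype and day groups, fitted to all 24 arrays; the clone was a random block (duplicateCorrelation, consensus correlation 0.161) and Benjamini-Hochberg adjustment over all genes. Line pairs were tested on 12 line-by-genotype-by-day means without a block. The scripts were tested on simulated data. The alternatives were other blocks, filters, thresholds, scalings and probe set rules, and fits without 1 array or 1 clone. The named genes are the 12 largest called differences each way for which the KO lines' changes did not overlap those of the WT lines, up to 4 called members of each of 31 lists (the largest member where none was called), the 3 largest of each class, the 5 largest in J1 alone each way, and 7 genes named in any case (Eed, Pou5f1, Nanog, Sox2, Zfp42, Cdkn2a and Hbb-bh1). Clone and predicted symbols were passed over. Other called members of a list were named because they were called. The members and lists were chosen with earlier results of these data known. Some genes are members of more than 1 list and were counted in each, so the lists are not independent. Both KO lines lay on one side of both WT lines for 50.2% of all genes. CpG content of the called sets was not compared, and their motif shares were not tested. A promoter was available for 79.4% of the higher, 73.2% of the lower and 78.3% of all genes. Whether replicate numbers pair the arrays is not given in the labels. Over 28 pairs of groups the correlation of same-numbered deviations had a median of 0.0391 (−0.397 to 0.363), which does not settle it. The fit with the replicate number as a block is given below.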

Additional observations from a re-analysis of the deposited data

Results flagged for a closer look

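In groups of 4 arrays, 15 of 436 tests over the 109 named genes (3.44%) found 1 array far from the other 3 by Dixon's criterion, which chance alone gives in about 1 of 20 groups. On day 7 in WT, Dppa2 (7.36) and Zfp42 (5.4) were low in V6.5 replicate 1, and Pou5f1 (7.95) was low in J1 replicate 2. On day 3 in WT, Lncenc1 (10.96) and Nanog (12) were high in J1 replicate 1, Fbxo15 (6.54) and Jarid2 (11.46) were low in J1 replicate 2, and Zfpm1 (7.61) was low in V6.5 replicate 2. On day 7 in KO, Stmn2 (11.44) was high in E14 replicate 1. On day 3 in KO, Mir302c (6.98) and Hoxc8 (8.0) were high in E14 replicate 2 and Cdkn1c (9.32) in E14 replicate 1, while Ooep (8.78) and Etv5 (11.18) were low in J1 replicate 1 and Bmp5 (5.78) in J1 replicate 2. None of the 15 was in WT J1 day 7 replicate 1.

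Of the named genes, 7 changed by different amounts in the 2 lines of a genotype, by limma's test of that difference. In WT the change in V6.5 minus that in J1 was 1.9 for Foxf1 (adjusted p = 0.0013), 1.68 for Hoxc8 (adjusted p = 0.0422), 1.38 for Hoxb2 (adjusted p = 0.036) and 2.09 for Ms4a4d (adjusted p = 0.00354). In KO the change in E14 minus that in J1 was −2.07 for the neuronal filament gene Ina (adjusted p = 0.0462), −1.87 for the ion channel gene Piezo2 (adjusted p = 0.021) and 2.03 for the keratin gene Krt8 (adjusted p = 0.0462).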

How the results depend on the processing

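All 511 called differences of changes kept their direction under the alternatives that tested them (478 were tested with a mean level above 6). Under other thresholds, other blocks, averaging or without a clone this outcome was fixed in advance, so it is no separate support. The counts moved mainly with the lines and with WT J1 day 7 replicate 1. For all, higher and lower genes, main counts of 511, 272 and 239 became 1049, 590 and 459 with no fold minimum, 334, 187 and 147 at an adjusted p under 0.01, 327, 166 and 161 with the arrays of a line and day averaged, 273, 179 and 94 without the KO E14 clone, 350, 255 and 95 without KO J1, 899, 405 and 494 without WT J1, 145, 94 and 51 without WT V6.5, and 853, 378 and 475 without both arrays of WT J1 on day 7. Leaving out 1 array gave 397 to 843, 217 to 369 and 180 to 474. The J1 pair gave 204 genes and the E14 and V6.5 pair 800. With the arrays of days 3 and 7 alone 397 genes were called, with no block 422, with quantile normalization 476 (50% higher, against 53.2% as deposited) and with each array centred on its median 495 (49.7% higher). With the replicate number as a block 506 genes were called (270 higher and 236 lower), and the block changed no other call by more than 1.5 times.

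Within genotypes, 329 genes rose and 70 fell in KO and 753 rose and 489 fell in WT, against 1247, 785, 2824 and 3065 with no fold minimum. Without KO E14 184 rose and 26 fell in KO, and without WT V6.5 494 rose in WT. With 1 array left out, 237 to 370 rose and 59 to 82 fell in KO, and 674 to 935 rose and 459 to 601 fell in WT. The 151 genes that differed between KO and WT on day 3 became 434 with no fold minimum, 96 at an adjusted p under 0.01, 43 with arrays averaged, 53 without KO E14 and 247 without WT J1, with a range of 101 to 167 over single arrays. The 870 of day 7 became 3250 with no fold minimum and 786 to 1081 over single arrays. A stricter threshold gives fewer calls by construction, and the cause of the other moves was not tested. Over the named genes and alternatives, 258 values lost a call, 48 gained one, 3282 kept their side and 2 changed sign without a call. These were of Piezo2, at 0.36 with all arrays, −0.57 without KO J1 and −0.08 without WT J1.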

Other observations

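All 31 measured proteasome subunit genes had a positive difference of changes, 0.00 to 0.33 on the log2 scale, against 9507 of all 19938 genes, and none was called. Their median change was −0.05 in KO and −0.26 in WT. Proteasome genes share regulation, so the 31 values are not independent. Their largest, Psmc1, was 0.33 (SE 0.14, adjusted p = 0.206).

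Chromosome 4, picked after its counts were seen, had the highest share of called higher genes, 29 of 1154 measured there (2.51%), and 4 lower ones (0.347%), against 1.36% and 1.2% over all genes. The next shares of higher genes were 2.03% on chromosome X and 2.01% on chromosome 3. Adm (−0.73) and Vegfa (−0.96), genes induced by low oxygen, were not called, and Vegfa had changes of 0.99 in KO, below the 2-fold minimum, and 1.96 in WT, a called rise. Across all genes the KO and WT changes correlated at Pearson's r = 0.643 (Spearman's rho = 0.553), with an SD of 0.342 in KO and 0.555 in WT, as a description over genes that share arrays.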
